A study of Mus musculus with 6 samples.

Results

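The genes described here encode transporters of organic anions, 3 of the SLCO family (Slco4a1, Slco2b1 and Slco3a1) and 4 of the ABCC family (Abcc1, Abcc3, Abcc4 and Abcc5). They were chosen by their symbols, with their difference between NaCl and control already known, and make up 7 of the 15903 genes tested. Their values in this comparison are therefore given as a description with no p-value. Slco4a1 rose from 4.77 ± 3.27 CPM in control to 399 ± 183 CPM in NaCl-treated macrophages (mean ± SD, n = 3 each), whereas the fitted changes of the 4 ABCC genes lay between -0.08 and 0.06 on the log2 scale. CPM stands for counts of a gene per 1e6 counts of its library, here with library sizes scaled by edgeR's TMM method.

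SLCO proteins, also called organic anion transporting polypeptides, carry large amphipathic anions such as bile acids, steroid sulphates, thyroid hormones, prostaglandins and many drugs across the cell membrane, mostly into the cell. ABCC proteins, also called multidrug resistance-associated proteins, use ATP to pump organic anions out of the cell, among them conjugates with glutathione, glucuronate or sulphate. Macrophages are known for the export of leukotriene C4 by Abcc1, and Abcc4 is known as an exporter of cyclic nucleotides and prostaglandins. Cells use both families together, so that uptake and export set how much of a shared substrate they hold.

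RNA was sequenced from bone-marrow-derived macrophages (BMDMs) of 3 mice, and cells of every mouse gave 1 control library, labelled unstimulated, and 1 library after 24 h with 62 mM excess NaCl. All 6 libraries came from Cx3cr1GFP mice on the C57BL/6J background, which carry GFP at the Cx3cr1 locus, and from marrow cultured for 7 days in VLE-RPMI with 10 ng/ml M-CSF, with the cells that stayed adherent taken off by 2 mM EDTA. The age of the mice and the handling of the control cultures during the 24 h are not given in the sources used here. Replicate 1, 2 and 3 of each group came from mouse 1, 2 and 3.

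Reads counted on genes ranged from 8520433 to 20123570 in control and from 4088065 to 11610020 in NaCl libraries, and NaCl replicate 3, the shallowest, had no read on 1235 of the genes tested. All 9 macrophage markers examined passed the filter on low counts. Their summed level was 15170 to 16550 CPM in control and 23598 to 31079 CPM in NaCl libraries. Much of that sum was Lyz2, the lysozyme of macrophages, with a mean of 9817 CPM in control and 19148 CPM in NaCl. It alone among them was past the threshold. With the mouse added as a replicate block, edgeR called 2 higher (Lyz2 and Csf1r) and 1 lower (Mertk, mean 93.4 CPM in control and 47.3 CPM in NaCl). Summed markers of other cells were lower, at 91.1 to 309 CPM for monocytes, 136 to 275 CPM for neutrophils and 2.08 to 4.08 CPM for dendritic cells over all libraries. Those of B cells, erythroid cells, stromal cells and epithelial cells stayed under 5 CPM in every library, and no T cell marker had more than 1 read in all. The epithelial sum was 0.455 to 1.46 CPM in control and 1.45 to 3.54 CPM in NaCl libraries. It came almost only from Cdh1, with 102 reads in all, beside 1, 0 and 2 reads for Epcam, Krt8 and Krt18. Cdh1 was called higher in edgeR with the block (adjusted p = 0.0496) and not without it. The part of these shifts in marker levels in the transporter differences was not tested. In such bulk RNA, a change in the share of expressing cells and a change in RNA per cell cannot be told apart.

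The RefSeq promoter windows (250 bases before to 50 bases after an annotated start, build GRCm38.p6) are shown for Slco4a1 and Slco2b1, the SLCO genes for which the table holds any, whose levels moved in opposite directions. Slco4a1 has 2 such windows, at chr2:180455995-180456294 and chr2:180460728-180461027 on the plus strand, and the first of the 3 windows of Slco2b1 lies at chr7:99711291-99711590 on the minus strand. Each is written 5′ to 3′ along the gene, and capitals mark a match, on either strand, to TGGAAA, the core bound by NFAT proteins including the osmotic regulator NFAT5, or to the AP-1 element TGANTCA.
Slco4a1, window 1: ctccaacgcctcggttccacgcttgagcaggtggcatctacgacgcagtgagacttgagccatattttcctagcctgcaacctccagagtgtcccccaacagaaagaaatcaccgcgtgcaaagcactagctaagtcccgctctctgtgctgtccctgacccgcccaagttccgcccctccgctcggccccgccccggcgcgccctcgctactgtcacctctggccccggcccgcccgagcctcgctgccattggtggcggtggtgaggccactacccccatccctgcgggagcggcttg
Slco4a1, window 2: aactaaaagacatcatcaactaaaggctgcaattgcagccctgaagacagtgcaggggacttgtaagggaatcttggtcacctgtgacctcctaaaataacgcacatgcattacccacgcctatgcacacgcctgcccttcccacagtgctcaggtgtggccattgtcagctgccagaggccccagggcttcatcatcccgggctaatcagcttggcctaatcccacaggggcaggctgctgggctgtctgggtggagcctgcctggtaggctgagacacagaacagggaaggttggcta
Slco2b1, window 1: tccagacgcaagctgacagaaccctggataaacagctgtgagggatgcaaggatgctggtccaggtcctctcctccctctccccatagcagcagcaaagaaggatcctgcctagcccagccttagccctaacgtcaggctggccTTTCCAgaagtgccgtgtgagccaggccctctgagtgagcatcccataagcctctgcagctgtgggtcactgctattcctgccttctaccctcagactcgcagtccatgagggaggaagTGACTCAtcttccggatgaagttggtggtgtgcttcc
The core of the antioxidant response element, TGACNNNGC, and the E-box, CANNTG, were searched as well, and a base could count for more than 1 motif. Neither Slco4a1 window held the NFAT core, the AP-1 element or the antioxidant core, and they held 1 and 5 E-boxes. Window 1 of Slco2b1 held the NFAT core in reverse complement at base 145 and the AP-1 element at base 264, counted from the 5′ end. Of the other windows of Slco2b1, the second held none of the 4 motifs, and the third held the NFAT core at base 98 and 4 E-boxes. Over all 32851 windows in the table, 21.4% held the NFAT core, 7.81% the AP-1 element, 12.4% the antioxidant core and 72.3% an E-box on either strand. These are matches of letters in short windows and no evidence of binding. GC content was 65.3% with 24 CpG dinucleotides in window 1 of Slco4a1 and 55.7% with 4 in window 2, beside a median of 52.7% and 7 over all windows. Windows of Abcc4 and Abcc5 were also found, so that 4 of the 7 genes had 1 or more. Both windows of Abcc4 held the antioxidant core and the second held the NFAT core, while the window of Abcc5 held none of the 4 motifs.

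Among the importers, Slco4a1 (ENSMUSG00000038963.16, chromosome 2), a broadly expressed carrier of thyroid hormones and prostaglandins, was barely counted in control cells. Its raw counts were 13, 53 and 159 in control replicates 1 to 3 and 2026, 6511 and 1590 in NaCl replicates 1 to 3. Relative to depth these were 1.48, 4.80 and 8.02 CPM in control and 226, 590 and 381 CPM in NaCl libraries. Every NaCl library thus lay far above every control library. The NaCl library exceeded the control library of the same mouse 153-fold, 123-fold and 47.5-fold in mice 1, 2 and 3. On the log2 scale edgeR's fitted change was 6.29 (SE 0.53) without and 6.34 (SE 0.21) with the mouse as a replicate block. Leaving out each library in turn gave 5.88 to 6.96 without the block. These SEs were derived from edgeR's test statistic, whereas the DESeq2 package gave 6.39 (SE 0.72) without and 6.57 (SE 0.51) with the block. The changes within mice were 7.26, 6.94 and 5.57 in mice 1, 2 and 3. Mouse 1 had the lowest level in both groups, and the levels spanned 5.43-fold among control and 2.61-fold among NaCl libraries. No stretch of 75 bases in its transcripts was shared with another gene of GENCODE M21.

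Slco2b1 (ENSMUSG00000030737.18, chromosome 7), a carrier of steroid sulphates and of statins, was the main SLCO gene of control cells. Its level was 67.3, 39.3 and 33.1 CPM in control replicates 1 to 3 and 48.1, 25.7 and 21.8 CPM in NaCl replicates 1 to 3. The groups overlapped, because mouse 1 was highest in both, but the NaCl library lay below the control library in each of the 3 mice. The level in NaCl was 0.714, 0.653 and 0.658 of that in control in mice 1, 2 and 3. The fitted log2 change was -0.53 (SE 0.33) and became -0.56 (SE 0.13) with the replicate block. Without control replicate 1 it was -0.16 and without NaCl replicate 1 it was -0.95, and without NaCl replicate 3 it was -0.33. Of its exonic bases 9.21% overlap Gm15635 and Gm34280 on the opposite strand, and 4.75% of its 75-base windows occur in these genes too. The counting did not use strand, so reads from those bases could not be assigned with certainty.

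Slco3a1 (ENSMUSG00000025790.15, chromosome 7), a carrier of prostaglandins and thyroxine, had the fewest reads of the 7 genes, 240 in all. Its counts were 25, 40 and 54 in control and 49, 56 and 16 in NaCl replicates, which correspond to 2.84, 3.62 and 2.72 CPM against 5.48, 5.08 and 3.83 CPM. The groups did not overlap, but NaCl replicate 3, with 16 reads at 3.83 CPM, lay close to control replicate 2 at 3.62 CPM. The fitted log2 change was 0.68 (SE 0.26), and the changes within mice were 0.95, 0.49 and 0.49.

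**Figure D1:**
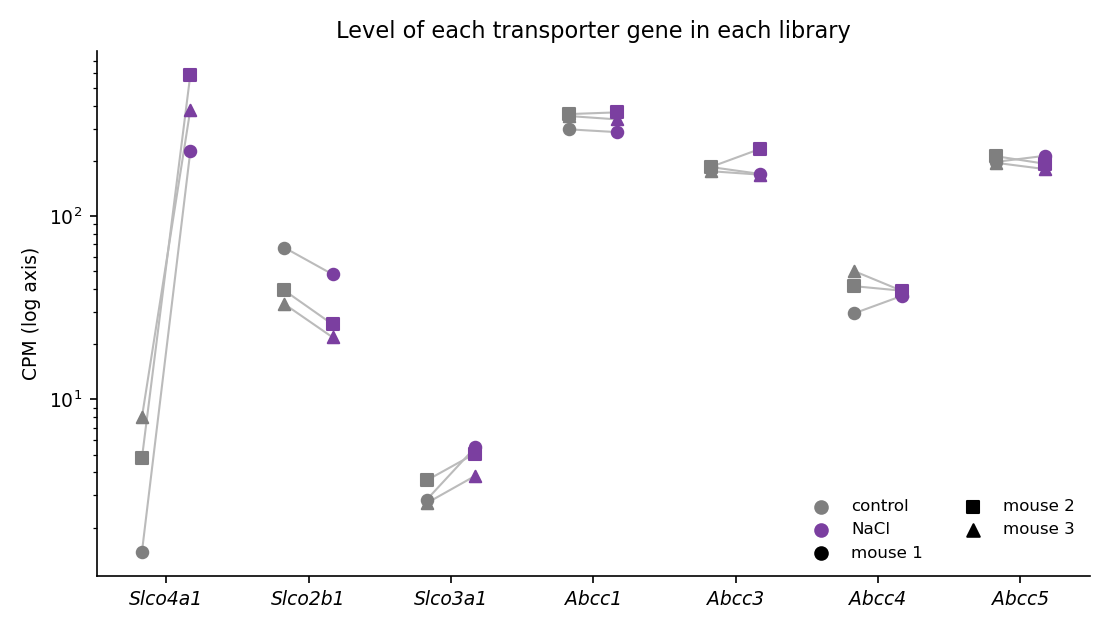
Level of each transporter gene in CPM on a log axis, with 1 point per library (gray for control, purple for NaCl, a marker shape per mouse) and a line joining the libraries of a mouse. Slco4a1 moves from 1.48 to 8.02 CPM in control up to 226 to 590 CPM in NaCl, the 3 lines of Slco2b1 fall, those of Slco3a1 rise, and the lines of the ABCC genes stay near level.

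Among the exporters, Abcc1 (ENSMUSG00000023088.18, chromosome 16), which exports leukotriene C4 and glutathione conjugates, had 297, 360 and 351 CPM in control and 287, 368 and 336 CPM in NaCl replicates. Both groups covered the same range, and the fitted log2 change was -0.02 (SE 0.14). Abcc3 (ENSMUSG00000020865.17, chromosome 11), an exporter of glucuronides and bile acids, had 185, 186 and 175 CPM in control and 170, 232 and 168 CPM in NaCl replicates. NaCl replicate 2 stood above the other 5 libraries, which lay close together, and the fitted log2 change was 0.06 (SE 0.15).

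Abcc4 (ENSMUSG00000032849.15, chromosome 14) had 29.5, 41.5 and 50.2 CPM in control and 36.8, 39.2 and 39.0 CPM in NaCl replicates. The control libraries spread more widely than the NaCl libraries, which all lay within the control range, and the changes within mice pointed both ways, at 0.32, -0.08 and -0.36 on the log2 scale. The fitted log2 change of Abcc4 was -0.08 (SE 0.19). Abcc5 (ENSMUSG00000022822.17, chromosome 16), an exporter of cyclic nucleotides, had 198, 212 and 195 CPM in control and 213, 193 and 180 CPM in NaCl replicates. These groups overlapped too, and the fitted log2 change was -0.04 (SE 0.12).

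**Figure D2:**
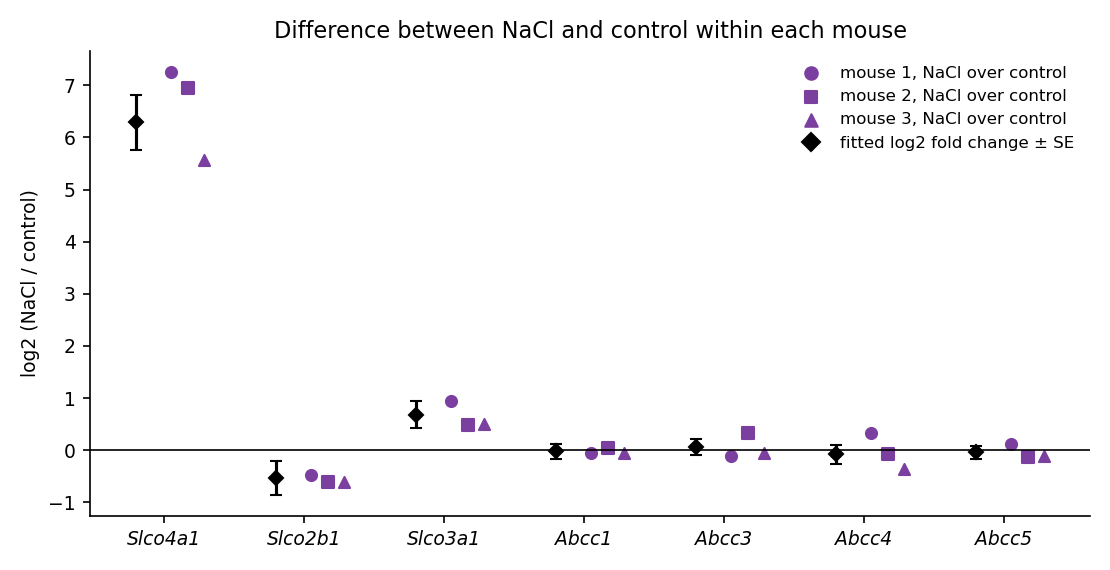
Log2 ratio of NaCl over control for each transporter gene, as the fitted change with its SE (diamonds) and as the ratio within each mouse (purple markers). Slco4a1 lies at 5.57 to 7.26 in the 3 mice, Slco2b1 between -0.62 and -0.49, and the 4 ABCC genes lie on both sides of 0.

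Of the 7 genes, 1 (Slco4a1) was past the threshold of 0.05 in edgeR's quasi-likelihood test, where 0.478% of all genes tested were called higher and 0.176% lower. With the replicate block, Slco4a1 was called higher and Slco2b1 lower, where 4.60% of all genes were called higher and 4.30% lower. The groups did not overlap, with NaCl higher, for 2 of the 7 (Slco4a1 and Slco3a1) and for 8.92% of all genes. The same 2 were higher in 3 of 3 mice, as were 20.1% of all genes, and Slco2b1 was lower in 3 of 3 mice, as were 23.4% of all genes. The genes were chosen on this contrast, so nothing is read from these counts.

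Levels of different genes were compared per kilobase of exonic sequence, over all transcripts in GENCODE M21. In control cells Abcc3 stood highest at 31.9 ± 1.00 CPM per kilobase, followed by Abcc1 at 22.2 ± 2.25 and Abcc5 at 18.9 ± 0.847. Slco2b1 (7.82 ± 3.06) and Abcc4 (6.32 ± 1.63) came next, and Slco4a1 (0.993 ± 0.682) and Slco3a1 (0.361 ± 0.0577) were lowest. The neighbours Abcc1 and Abcc5, Slco2b1 and Abcc4, and Slco4a1 and Slco3a1 overlapped between libraries in this order. In NaCl-treated cells Slco4a1 moved to the top at 83.2 ± 38.05 CPM per kilobase, with its lowest library (47.2) above the highest library of Abcc3 (40.7). Below it the order was Abcc3, Abcc1, Abcc5, Abcc4, Slco2b1 and Slco3a1, in which Abcc1 and Abcc5 overlapped, as did Abcc4 and Slco2b1. Per kilobase of the longest coding transcript instead, Abcc1 stood above Abcc3 in both groups (49.4 ± 5.003 against 36.4 ± 1.13 CPM per kilobase in control), while Slco4a1 kept the sixth place in control and the first in NaCl.

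**Figure D3:**
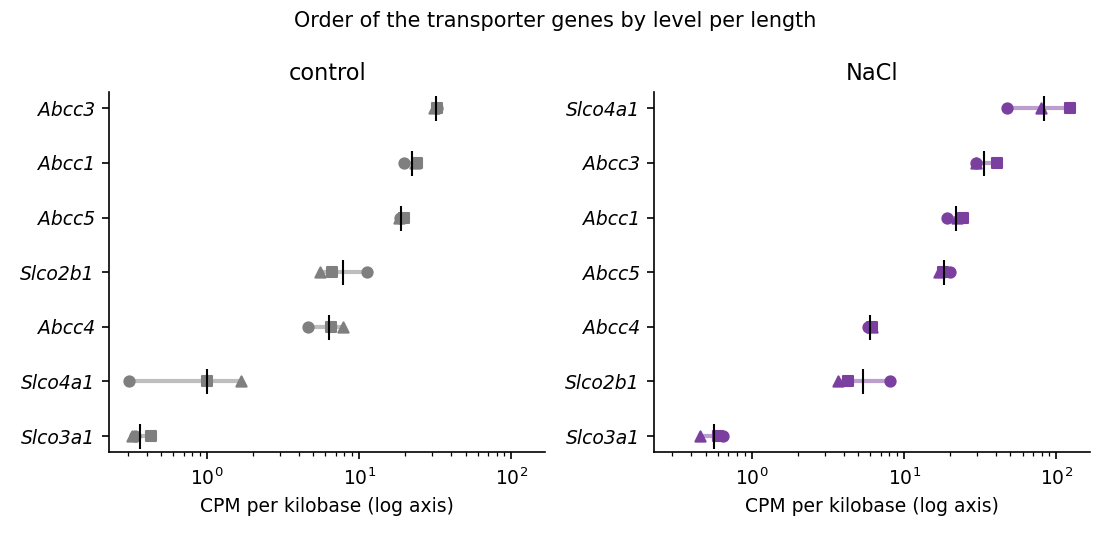
Level of each transporter gene in CPM per kilobase of exonic sequence (log axis) in control (left) and NaCl (right), ordered by group mean, with circles, squares and triangles for mice 1, 2 and 3, a bar over their range and a tick at the mean. Slco4a1 stands sixth in control at a mean of 0.993 and first in NaCl at a mean of 83.2.

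The reads of each family were also divided among its genes within a library, which needs no scaling between libraries. Of the reads on the 3 SLCO genes, Slco4a1 held 2.06% (95% Wilson interval 1.21 to 3.50), 10.1% (7.77 to 12.9) and 18.3% (15.8 to 21.0) in control replicates 1 to 3. In NaCl replicates 1 to 3 it held 80.9% (79.3 to 82.4), 95.1% (94.5 to 95.5) and 93.7% (92.4 to 94.8), where the intervals cover counting error only. The lowest NaCl share was therefore above the highest control share. Slco2b1 held 94.0%, 82.4% and 75.5% of these reads in control and 17.2%, 4.13% and 5.36% in NaCl replicates. A share also depends on the reads of the other genes. The level of Slco2b1 itself in NaCl was 0.714, 0.653 and 0.658 of that in control in mice 1, 2 and 3. Summed over the 3 genes, the level was 71.6, 47.7 and 43.9 CPM in control and 280, 621 and 407 CPM in NaCl replicates.

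The 4 ABCC genes kept nearly the same division of reads. Abcc1 held 41.9%, 45.0% and 45.5% of their reads in control and 40.6%, 44.2% and 46.5% in NaCl replicates, so that the groups overlapped. Abcc4 held the least in every library, from 4.16% to 6.51%. The sum of the 4 genes was 709, 799 and 772 CPM in control and 706, 832 and 724 CPM in NaCl replicates, and the order of the mice was the same in both groups.

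**Figure D4:**
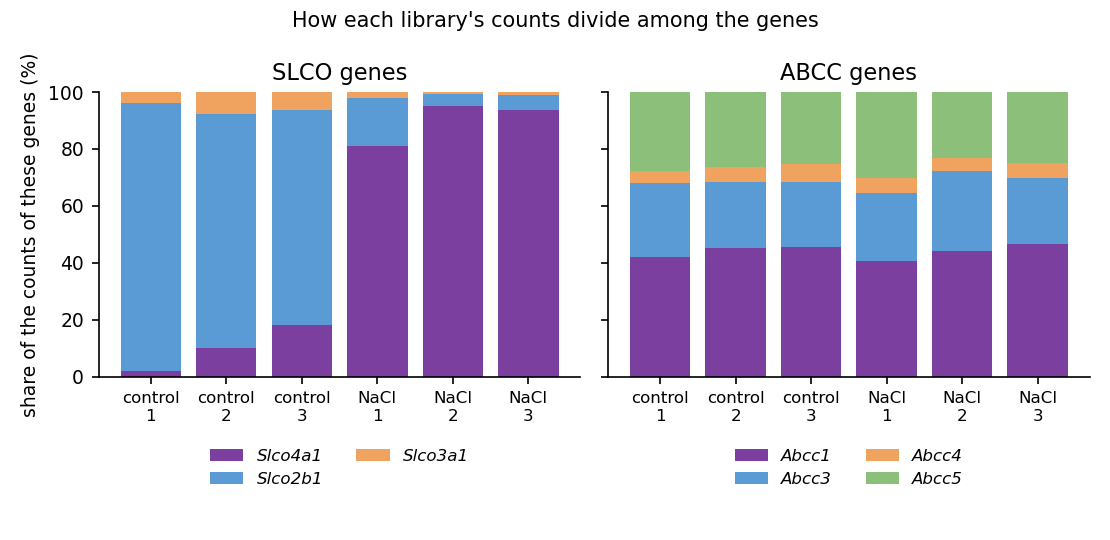
Share of each library's reads on the 3 SLCO genes (left) and on the 4 ABCC genes (right) that fell on each gene, in percent, for control and NaCl replicates 1 to 3. Slco4a1 holds 2.06% to 18.3% of the SLCO reads in control and 80.9% to 95.1% in NaCl, while the ABCC bars look alike in all 6 libraries.

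Genes that lie next to the transporters were followed to see how local the differences were. In edgeR 0.478% of all genes tested were called higher and 0.176% lower. Of the 18 neighbours tested, which were the nearest on each side and the next 2 on each side of Slco4a1, 1 was past the threshold. This was B230312C02Rik, a long non-coding RNA gene next to Slco4a1 on the opposite strand, with which it shares no exon in GENCODE M21. It had 0, 2 and 0 reads in control and 11, 40 and 10 reads in NaCl replicates. Pooled over the 3 libraries of a group and scaled for depth, its level was 50.1-fold higher in NaCl, with a 95% exact interval of 13.3 to 423 for counting error only. Its adjusted p was 0.035 in edgeR's quasi-likelihood test and 1.18e-05 with the replicate block. The call was lost without control replicate 1, 2 or 3 and without NaCl replicate 2 or 3, where edgeR's adjusted p was 0.0538 to 0.166. Because the counting ignored strand, reads of unannotated transcription from one gene into the other could not be told apart.

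The other genes around Slco4a1 were not past the threshold. Mrgbp, on the far side of Slco4a1 and coding for a subunit of a histone acetyltransferase complex, had a log2 change of 0.05 (SE 0.15), and Ogfr, the opioid growth factor receptor, had 0.15 (SE 0.16). Cables2, beyond the non-coding gene, had 0.39 (SE 0.20). Over the 17 other neighbours the changes ran from -1.20 to 0.65 on the log2 scale. These ends belong to Mir3091 and Dzip1, which had only 15 and 12 reads in all. Tpbgl, next to Slco2b1, had a log2 change of -0.93, with an adjusted p of 0.249 without and 0.027 with the replicate block in edgeR.

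The remaining members of both families were little expressed. They and the other gene lists below were chosen with earlier results of these data known, so their counts are a description. Of 12 other SLCO genes, 9 had no read in any library and 2 (Slco4c1 and Slco5a1) passed the filter of 10 reads in all. Slco5a1 had 1.02, 0.996 and 1.66 CPM in control and 0.894, 0.997 and 1.44 CPM in NaCl replicates, with overlapping groups. Of 7 other ABCC genes, 4 had no read and 2 were tested. Of these 4 tested genes, 0 passed in edgeR with or without the block or in DESeq2, and 0 had an unadjusted p under 0.05 in edgeR. Abcc10, an exporter of lipophilic anions, had 12.3, 12.6 and 9.08 CPM in control and 9.05, 10.1 and 6.71 CPM in NaCl replicates. It was lower in NaCl in each mouse, but its log2 change of -0.36 (SE 0.22) did not pass edgeR's test (adjusted p = 0.551). Abcc2, an apical exporter of conjugates known from the liver, had 0.362 to 1.36 CPM in control and 0.725 to 2.91 CPM in NaCl libraries.

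Other carriers of organic ions and drugs were examined as a list of 32 genes, of which 18 were tested. In edgeR 0 were past the threshold and 4 had an unadjusted p under 0.05, as did 2010 of all 15903 genes. DESeq2 called 1 (Slc22a18), and the median log2 change was -0.25, beside -0.01 over all genes. Abcb4, a phospholipid transporter related to the drug exporter P-glycoprotein, had 58.6, 59.9 and 69.0 CPM in control and 71.4, 107 and 97.3 CPM in NaCl replicates. The groups did not overlap, and its log2 change of 0.56 (SE 0.17) had an adjusted p of 0.2 without and 0.00534 with the replicate block in edgeR. Slc22a18, a putative organic cation carrier, had 4.43, 6.52 and 5.50 CPM in control and 3.02, 2.27 and 1.92 CPM in NaCl replicates. It changed by -1.16 (SE 0.28) on the log2 scale, with an adjusted p of 0.114 without and 0.00493 with the block in edgeR. With the block in DESeq2, Slc22a18 did not pass. Abcb1b, which encodes a P-glycoprotein, had a log2 change of 0.33 (SE 0.12), and Abcg2, another drug exporter, -0.36 (SE 0.17), and neither passed with or without the block. Slc10a7, which is related to the bile acid carriers, was at -0.24 (SE 0.13) and did not pass either.

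Glutathione conjugates are a main cargo of the ABCC exporters, so the enzymes that make, attach and break down glutathione were examined next. Of 34 genes 26 were tested, and 0 were higher and 1 was lower in edgeR's test. An unadjusted p under 0.05 was found for 9, and for 2010 of all 15903 genes. With the replicate block 1 was higher and 7 were lower, where 4.60% and 4.30% of all genes were called. DESeq2 called 1 higher (Mgst2) and 1 lower (Chac1), and the median log2 change was -0.28. The gene that fell without the block was Chac1, which degrades glutathione inside the cell, with 4.09, 10.8 and 11.1 CPM in control and 1.79, 1.36 and 1.68 CPM in NaCl replicates. Its log2 change was -2.46 (SE 0.41, adjusted p = 0.0384 in edgeR), and the call was lost without control replicate 2 or 3 and without NaCl replicate 2 or 3.

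Gclm, the regulatory subunit of the enzyme that limits glutathione synthesis, had 184, 367 and 408 CPM in control and 169, 160 and 271 CPM in NaCl replicates. The groups overlapped through control replicate 1, though the level fell in each mouse, and its log2 change was -0.68 (SE 0.29, adjusted p = 0.378 without and 0.00443 with the block in edgeR). The catalytic subunit Gclc had a log2 change of -0.13 (SE 0.27). Among the transferases that attach glutathione, Gsta3 (-0.95), Gstm4 (-0.81), Gsto1 (-0.42) and Mgst1 (-0.43) passed as lower in edgeR with the block and not without it. Of these, Gstm4 and Gsto1 did not pass with the block in DESeq2. Mgst2, which can also make leukotriene C4, had a log2 change of 0.85 (SE 0.23) and passed as higher in edgeR with the block and in DESeq2. Ggt5, which cleaves leukotriene C4 outside the cell, was at -1.26 (SE 0.42) and passed with the block in edgeR but not in DESeq2. Gstm1, one of the most abundant transferases here, was at -0.24 (SE 0.16) and did not pass.

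Eicosanoids, the prostaglandins and leukotrienes, are a shared cargo of both families. Of 19 genes for their synthesis and breakdown 16 were tested, and 2 were higher and 0 lower in edgeR, with a median log2 change of 0.29, and 4 were higher in DESeq2. Hpgd, which inactivates prostaglandins after their uptake into cells, rose by 1.46 (SE 0.14, adjusted p = 0.00261 in edgeR) on the log2 scale, from 98.9, 81.3 and 75.7 CPM to 250, 220 and 234 CPM. Alox5, which starts leukotriene synthesis, rose by 1.34 (SE 0.24, adjusted p = 0.0455), a call that was lost without any 1 of the 6 libraries. With the block 5 were higher (also Ptgs1, Ptgs2 and Pla2g4a) and 1 was lower (Tbxas1, thromboxane synthase, at -0.52). Of all genes tested, 0.478% were called higher and 0.176% lower in edgeR, and 4.60% and 4.30% with the block. Alox5ap and Hpgds, with Tbxas1 the most abundant of the list over all 6 libraries, had log2 changes of 0.21 (SE 0.19) and -0.28 (SE 0.15) and did not pass.

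Thyroid hormones are another cargo of SLCO carriers, and 10 of 14 genes for their transport and action were tested. With 0 past the threshold in edgeR and in DESeq2, the median log2 change was -0.11. In edgeR 4 had an unadjusted p under 0.05, as did 2010 of all 15903 genes. Slc16a10, a carrier of thyroid hormone and aromatic amino acids, had 180, 232 and 265 CPM in control and 200, 236 and 296 CPM in NaCl replicates. Its level was higher in NaCl in each mouse by a small amount, at a log2 change of 0.11 (SE 0.18), and it did not pass. Slc7a8 and Slc7a5, amino acid exchangers that also carry thyroid hormone, had log2 changes of -0.85 (SE 0.31) and -0.88 (SE 0.36) and in edgeR passed as lower with the block and not without it, with adjusted p of 8.44e-05 and 0.000263 in the fit with the block. Hr, a corepressor known as a thyroid hormone target, had 4.09, 1.36 and 2.72 CPM in control and 5.92, 5.17 and 6.71 CPM in NaCl replicates and had an adjusted p of 0.228 without and 0.0042 with the block in edgeR. The retinoid X receptor gene Rxra was at -0.29 (SE 0.13) and did not pass.

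Of 13 genes for transcription factors known to act on transporter genes, and their partners, 10 were tested. In edgeR 0 were past the threshold with or without the block and 0 had an unadjusted p under 0.05, DESeq2 called 0, and the median log2 change was -0.12. Nfat5, the osmotic regulator, had 138, 108 and 109 CPM in control and 130, 119 and 157 CPM in NaCl replicates. The groups overlapped, with a log2 change of 0.19 (SE 0.15, adjusted p = 0.668 in edgeR). Nfe2l2, which drives antioxidant genes and several ABCC exporters, was at -0.13 (SE 0.17), while Hif1a, the hypoxia factor, and Nr1h2, a sterol-sensing receptor, were at -0.14 (SE 0.15) and -0.10 (SE 0.14).

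**Figure D5:**
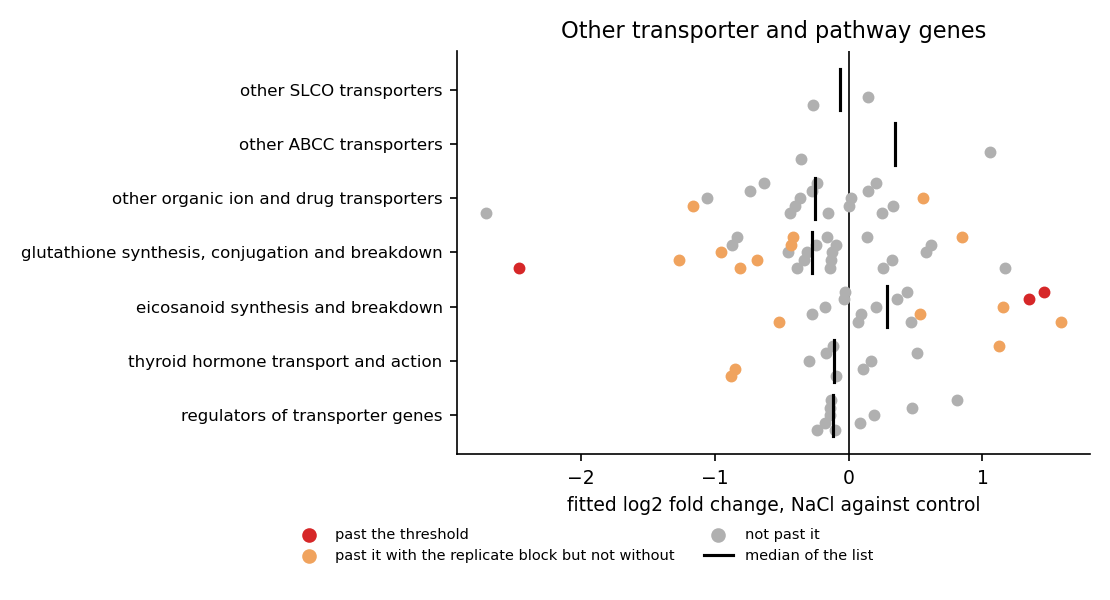
Fitted log2 change of NaCl against control for the tested genes of 7 lists of related transporters and pathways, with 1 point per gene, red where past the threshold, orange where past it with the replicate block but not without, and a black line at the median of a list. The medians lie between -0.28 and 0.35, and the 3 red points are Chac1 on the left and Alox5 and Hpgd on the right.

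Over the 7 lists together 84 of 131 genes were tested, of which 2 were higher and 1 was lower in edgeR's test, and 8 and 11 with the block. Without the block but with a minimum of 1 read in place of 10, 7 were higher and 7 lower, and Abcb4, Slc22a18, Gclm, Gsta3, Mgst2, Ptgs1, Ptgs2, Tbxas1, Slc7a5, Slc7a8 and Hr were called there too. The median log2 change of the 84 was -0.13, and 22 had an unadjusted p under 0.05, as did 2010 of all 15903 genes. Among 9923 genes with a mean of at least 50 reads, those whose log2 CPM followed Slco4a1 most closely over the 6 libraries were Cep128 (Pearson r = 0.997), Gsk3a (0.996), Cks2 (0.996), Mns1 (0.994) and Kdm1b (0.991). Each of these 5 was lowest in mouse 1 in both groups and higher in every NaCl library than in any control library, but over a small range, as for Cks2 with 8.41, 9.15 and 9.79 CPM against 14.0, 16.4 and 14.6 CPM. The points fall into the 2 treatment groups and share their libraries and depths, so the coefficients are a description.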

How the data were processed

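RNA was measured by polyA RNA sequencing in 3 control and 3 NaCl libraries of BMDMs. Per the submitters' processing notes, reads were handled with CASAVA 1.8.2, fastp 0.20.0, STAR 2.7.10b, SAMtools 1.16.1 and DESeq2 1.40.2 in R 4.3.1. The authors deposited raw read counts per gene, unnormalized and unstranded. A normalized signal, also deposited, holds these counts over their DESeq2 size factors. It gave gene symbols and chromosomes, and it held the same genes as those tested. The methods name mm10 together with GENCODE vM32, an annotation of another build. Apart from promoter windows and neighbours, genes are placed by chromosome only. Lengths and overlaps came from GENCODE M21 (97.4% of tested genes matched), and neighbours from the order of RefSeq genes on build GRCm38.p6.

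Genes with at least 10 reads in all (15903 of 57010 annotated) were tested with edgeR 4.0.16 (TMM, glmQLFit, glmQLFTest) in R 4.3.3, with Benjamini-Hochberg adjustment over all of them and a threshold of 0.05. In edgeR, the SE of a log2 change is its absolute value over the square root of the test's F statistic. Log2 CPM used a prior count of 2, and shares have Wilson intervals, which cover counting error only. The transporter genes and lists were chosen with earlier results of these data known. Named are all 7 transporters and the list genes past the threshold with or without the block. So are family genes of at least 5 CPM in every library, the 3 most abundant genes of a list and the 5 genes most like Slco4a1. Nfat5 and some of the neighbours are named as well, together with some further list and marker genes chosen after their values were seen.

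The labels give the mouse of each library, so the mouse pairs the samples and was fitted as a replicate block beside the test. Deviations of the libraries of a mouse from their group means correlated at 0.426, 0.151 and 0.217 across genes, other pairs at -0.350 to 0.124. The deviations within a group sum to 0, so the other pairs are no independent reference. Mouse 2, at 0.151, lay close to the highest of them. Further alternatives were DESeq2 1.42.0, the block in DESeq2, median-ratio size factors, a minimum of 1 read, filterByExpr and leaving out each library. Chosen after seeing the data were shares per kilobase and the length of the longest coding transcript. The fit without the block was tested on simulated counts with the same relative spread for every gene and no difference between mice. That test does not cover the differences between mice in these data. Tables and plots were made in Python 3.11.15 (pandas 2.3.3, scipy 1.17.1, matplotlib 3.10.9).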

Additional observations from a re-analysis of the deposited data

How the results depend on the processing

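The depth of NaCl replicate 3 (4088065 reads) limits genes such as Slco3a1 (16 reads there) and B230312C02Rik (10 reads). All 84 alternative values of the transporters' log2 changes lay within 1 SD between libraries of the reported ones. Leaving out 1 of 3 libraries can hardly move a mean by more than that SD, so this is a weak check. Slco4a1, Slco2b1 and Slco3a1 kept their direction in each, but Slco2b1 ran from -0.95 to -0.16 when 1 library was left out. Counts of calls depended on the processing. Genes higher and lower numbered 245 and 155 with DESeq2, 732 and 684 with the replicate block, 452 and 354 with the block in DESeq2, and 362 and 300 with a minimum of 1 read. Leaving out 1 library gave 8 to 123 higher and 0 to 46 lower, namely 46 and 25 if control replicate 1 was dropped, 8 and 1 for control replicate 2, 9 and 1 for control replicate 3, 123 and 46 for NaCl replicate 1, 22 and 0 for NaCl replicate 2, and 9 and 0 for NaCl replicate 3. Listed transporter and pathway genes numbered 5 higher and 2 lower with DESeq2, 8 and 11 with the replicate block, 8 and 7 with the block in DESeq2, 7 and 7 with a minimum of 1 read, and 1 to 2 higher and 0 to 1 lower without 1 library, where fewer samples were fitted. Otherwise the cause was not tested. Levels per kilobase of the longest coding transcript were 128.7 for Slco4a1, 48.6 for Abcc1, 33.6 for Abcc5, 6.71 for Abcc4 and 1.04 for Slco3a1 in NaCl, and 36.4 for Abcc3, 49.4 for Abcc1, 34.7 for Abcc5 and 0.668 for Slco3a1 in control, which are higher because the lengths are shorter. With the share taken per kilobase, Slco4a1 held 2.58% to 22.1% of the SLCO sum in control and 84.4% to 96.2% in NaCl.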

Other observations

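Slco4a1 varied more among the control libraries than most genes at its level. Of 2032 other genes with a control mean of 2.38 to 9.53 CPM, the median gene spanned 1.405-fold between its lowest and highest control library, and 8 (0.394%) spanned as much as the 5.43-fold of Slco4a1. These 8, named after their values were seen, were Adgre4, Gm54867, Ednrb, Pmepa1, Ciita, Gpr162, Abca6 and Cd207. In each of them control replicate 1 was the highest or the lowest library, as it was the lowest for Slco4a1. Pmepa1, a membrane protein induced by TGF-beta signalling, had 0.910, 5.34 and 6.46 CPM in control and 1.90, 10.2 and 7.67 CPM in NaCl replicates, and Cd207, the langerin of Langerhans cells, had 1.48, 4.98 and 8.12 CPM and 5.03, 17.6 and 17.5 CPM. Both were lowest in mouse 1 in either group, like Slco4a1. Adgre4, an adhesion receptor of macrophages, was highest in mouse 1 in either group, with 20.7 CPM untreated and 12.5 CPM after NaCl. Each mouse gave 1 library per group, so a difference between mice and a difference between cultures cannot be told apart.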
